A study of Mus musculus with 6 samples.

Results

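The genes described here are Krt4, Psca, Ly6a, Ly6d, Ppp1r1b, Clu, Cd44, Prom1 and Itga2, a group of 9 genes used as markers of proximal luminal progenitor cells and of stemness in the mouse prostate, chosen by symbol from the 54428 gene symbols measured. RNA-seq was performed on the whole anterior prostate (AP) of male mice at 20 weeks of age, with 1 library for each numbered replicate, called a mouse below. The 3 OEx mice carried Pbsn-Cre and 1 Rosa26 N1ICD allele, from which Cre recombination releases the constitutively active intracellular domain of Notch1. The 3 Ctrl mice carried the Rosa26 N1ICD allele without Cre according to the methods of the study, although the sample labels call them wild type. The Pbsn (probasin) promoter that drives Cre is androgen-dependent and is active in prostatic epithelium, so the stroma, vessels and immune cells of the whole OEx AP were not the intended target.

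The ducts of the mouse prostate run from the urethra (proximal) to their tips (distal). Luminal cells near the urethra are known for Krt4, Psca, Ly6a (Sca-1) and Ppp1r1b, for a low output of secretory proteins and for forming organoids in culture, whereas distal luminal cells secrete most of the prostatic fluid. Cd44, Prom1 (CD133) and Itga2 (integrin alpha 2) are surface proteins that have been used to enrich prostate stem or progenitor cells, and Clu (clusterin) is a secreted chaperone that rises in regressing or injured prostate epithelium. In whole tissue, a lower level of a gene through fewer cells of a type and through less RNA per cell cannot be told apart.

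The values are FPKM, fragment counts per kilobase of exon divided by a library denominator, and 14772005 to 18655462 reads per library were recovered from them. The denominators were 1.22 to 1.34 times the recovered reads in OEx libraries and 0.726 to 0.815 times in Ctrl libraries, so the deposited values carry a scaling that differs between the groups beyond the number of reads. Notch1 was at 41.9, 47.6 and 78.9 FPKM in OEx mice 1, 2 and 3 and at 5.18, 5.55 and 3.34 FPKM in Ctrl mice 1, 2 and 3 (log2 fold change 3.30, limma FDR 1.01e-04). In both groups replicate 3 stood apart from replicates 1 and 2, which had a Pearson r across genes of 0.991 with each other, against 0.951 to 0.952 (OEx) and 0.966 (Ctrl) for pairs with replicate 3. Ctrl mouse 3 also held 14993 FPKM summed over 7 seminal vesicle genes, against at most 3.99 FPKM in the other 5 mice. Replicates 1 and 2 were counted as separate mice, as they are numbered in the labels, although the labels do not say so and repeat libraries of 1 animal could be as close. If they were not separate, n = 3 and the SDs overstate the replication, and fits without the libraries numbered 3 hold 1 animal per group. The members are given below with and without the libraries numbered 3. The most abundant gene held 14.2% to 22.0% of the Ctrl reads and 1.04% to 1.12% of the OEx reads, so that the scaling between mice bears on small changes.

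Among the 9 members, Krt4, Ppp1r1b and Clu were called higher in OEx mice and Psca was called lower. Calls required a limma FDR (Benjamini-Hochberg, over all 12833 tested genes) under 0.05 together with a fold change over 2. These were 3 members called higher and 1 called lower of 8 tested, against 12.9% called higher, 15.7% called lower and 28.6% called in either direction over all tested genes. With Cd44, 5 of the 8 passed the FDR alone, 4 of them higher, against 67.2% in either direction and 30.7% higher over all tested genes. Ly6a, Ly6d, Cd44 and Prom1 were not called, and Itga2 had a mean under 1 FPKM and was not tested in the main fit. The groups did not overlap in 5 of the 9 members, 4 higher and 1 lower in OEx mice, against 33.4% (higher), 38.9% (lower) and 72.4% (either direction) of all tested genes. Itga2, among the 4 higher, was not tested and lies outside the genes of these shares. Taken in either direction, with or without Itga2, separation of the groups was thus no more frequent among the members than among all tested genes. The median log2 fold change was 0.25 over the 8 tested members and -0.08 over all tested genes. The group therefore held genes that rose, a gene that fell and genes without a call, and it had no common direction in OEx mice.

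**Figure D1:**
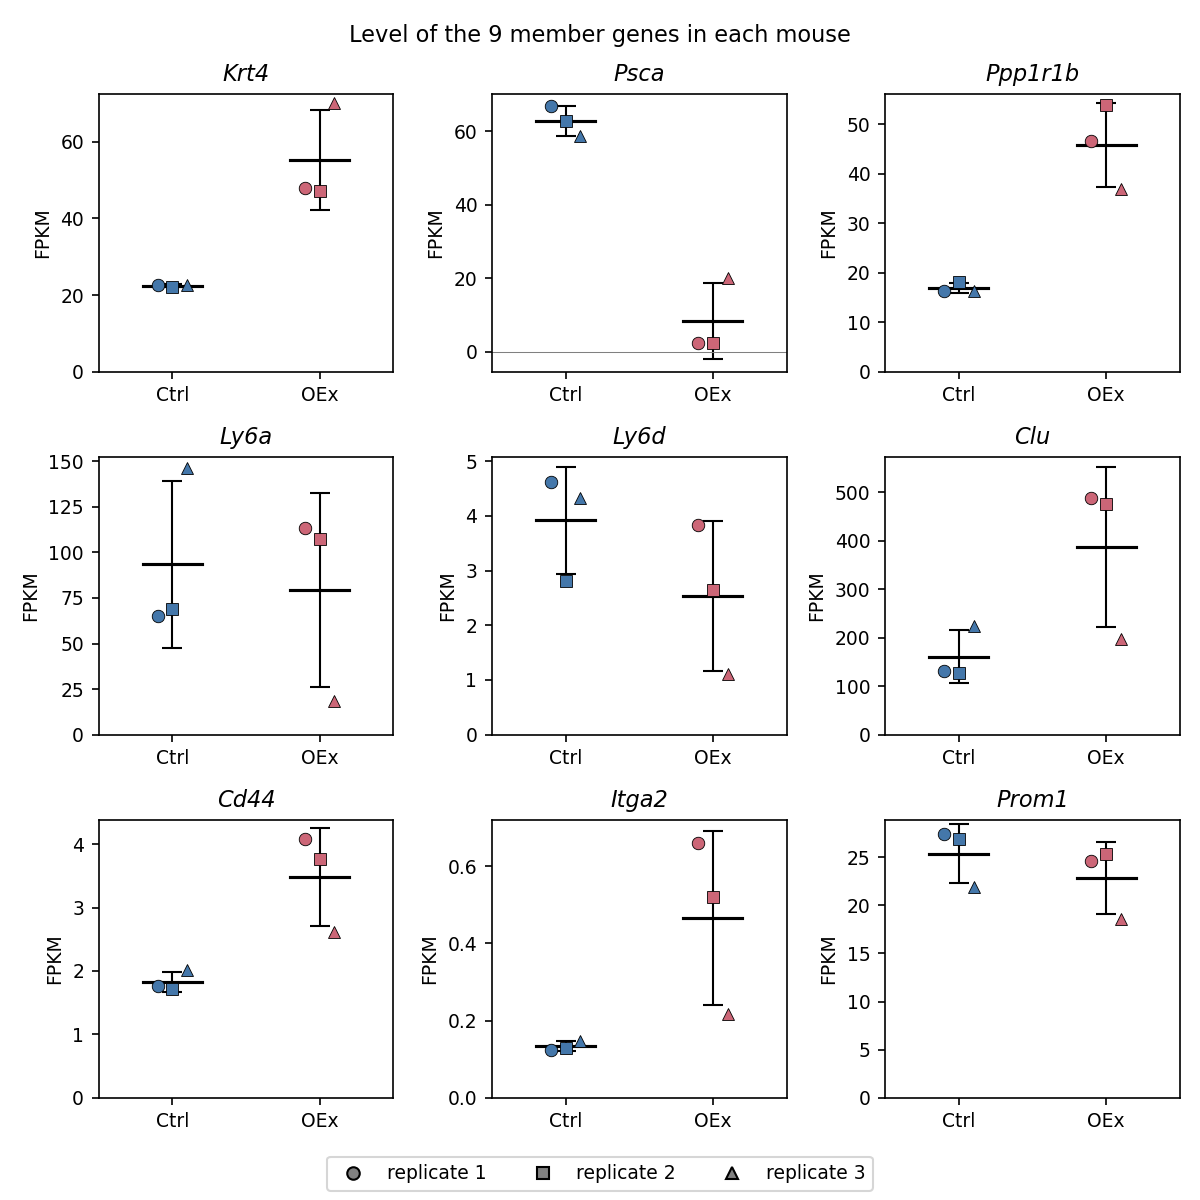
FPKM (y axis, linear) of each of the 9 member genes in the 3 Ctrl and 3 OEx mice, with the mean (long bar), the SD (error bars) and the replicate number (symbol). Krt4 and Ppp1r1b lie above the Ctrl mice in all 3 OEx mice and Psca below them, whereas in Clu and Ly6a replicate 3 of each group lies apart from replicates 1 and 2.

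Krt4 (chr15:101918535-101924735, minus strand, GRCm38 as for all genes here) encodes a keratin of stratified and transitional epithelia and labels proximal luminal cells. It was at 48.1, 47.3 and 70.2 FPKM in OEx mice 1, 2 and 3 and at 22.6, 22.0 and 22.7 FPKM in Ctrl mice 1, 2 and 3. All 3 OEx mice were above all Ctrl mice, and OEx mouse 3 was the highest. The mean was 2.46-fold higher in OEx mice, at 55.2 ± 13.0 against 22.5 ± 0.390 FPKM (SD, n = 3 each; log2 fold change 1.24, SE 0.159, 95% interval 0.85 to 1.62, limma FDR 5.98e-04). Without both libraries numbered 3 the log2 fold change of Krt4 was 1.06. The call held in 17 of 17 alternative analyses, with log2 fold changes from 1.05 to 2.11. Krt13, the keratin with which Krt4 usually pairs, was listed at 0 to 0.0723 FPKM over the 6 mice.

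Ppp1r1b (chr11:98348404-98357796, plus strand) encodes DARPP-32, an inhibitor of protein phosphatase 1 that is switched on by protein kinase A. Its level was 46.6, 53.8 and 36.8 FPKM in OEx mice 1, 2 and 3 and 16.3, 18.1 and 16.3 FPKM in the Ctrl mice. The groups did not overlap, and the lowest OEx mouse was mouse 3. Ppp1r1b was 2.70-fold higher in OEx mice, at 45.8 ± 8.53 against 16.9 ± 1.05 FPKM (SD, n = 3 each; log2 fold change 1.37, SE 0.145, 95% interval 1.02 to 1.71, limma FDR 2.60e-04). This was the smallest FDR among the members, and the call was kept in 17 of 17 alternatives (1.24 to 2.24; 1.49 without both libraries numbered 3). Of the exon bases of Ppp1r1b, 15.7% are shared with 1700003D09Rik on the opposite strand, and the strand setting of the counting is not given in the sources used here, so reads in that stretch could come from either gene.

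Clu (chr14:65968483-65981547, plus strand) was the most abundant member in both groups. Its level was 487, 476 and 196 FPKM in OEx mice 1, 2 and 3 and 131, 128 and 223 FPKM in Ctrl mice 1, 2 and 3. OEx mice 1 and 2 were above all Ctrl mice, but OEx mouse 3 was below Ctrl mouse 3, so the groups overlapped. The mean was 386 ± 165 FPKM (SD, n = 3) against 161 ± 54.3 FPKM (SD, n = 3), with a log2 fold change of 1.20 (SE 0.401, 95% interval 0.24 to 2.16, limma FDR 0.0344). The exact permutation test over the 20 assignments of the mice gave a two-sided p of 0.2 for Clu, where 0.1 is the smallest p that 3 against 3 mice allow. The call of Clu was lost without OEx mouse 1 (0.97, limma FDR 0.102), OEx mouse 2 (0.99, FDR 0.104), Ctrl mouse 1 (1.08, FDR 0.0997) or Ctrl mouse 2 (1.06, FDR 0.102). With both libraries numbered 3 left out the log2 fold change of Clu was 1.89 (limma FDR 8.12e-06). That FDR rests on replicates 1 and 2 alone, which may not be separate mice. With replicates 1 and 2 of each group averaged as 1 sample it was 0.85 (FDR 0.217). The size of the Clu difference thus changed with the libraries counted.

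Psca, Ly6a and Ly6d encode small GPI-anchored surface proteins of the Ly6 family and lie within 283 kb of each other on chromosome 15, between 74714839 and 74998031 (GRCm38), in the Ly6 gene cluster. Of the 3 neighbours, Psca was called, and Ly6a and Ly6d were not. Differences between the genes were not tested. Psca (chr15:74714839-74717069, plus strand), prostate stem cell antigen, was at 2.39, 2.29 and 20.2 FPKM in OEx mice 1, 2 and 3 and at 66.8, 62.8 and 58.6 FPKM in Ctrl mice 1, 2 and 3. The groups did not overlap, and OEx mouse 3 was 8.62 times the mean of OEx mice 1 and 2. Mean Psca was 7.58-fold higher in Ctrl mice, at 62.7 ± 4.11 against 8.28 ± 10.3 FPKM (SD, n = 3 each; log2 fold change -3.36, SE 0.699, 95% interval -5.04 to -1.69, limma FDR 0.00503). This was the largest change among the tested members, called in 17 of 17 alternatives, from -4.30 without both libraries numbered 3 to -2.57 with equal FPKM totals. The Psca values rested on 41 to 313 recovered reads in OEx mice and 699 to 766 reads in Ctrl mice.

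Ly6a (chr15:74994877-74998031, minus strand) encodes Sca-1, a surface antigen by which proximal prostate epithelial cells have been sorted and that endothelial and other stromal cells also carry. Its level was 113, 107 and 18.3 FPKM in OEx mice 1, 2 and 3 and 65.1, 69.0 and 146 FPKM in Ctrl mice 1, 2 and 3. The groups overlapped, since the lowest of the 6 values was OEx mouse 3 and the highest was Ctrl mouse 3. Mean Ly6a was 79.6 ± 53.2 against 93.4 ± 45.8 FPKM (SD, n = 3 each), and the difference was smaller than the spread among mice of either group (log2 fold change -0.51, SE 0.724, 95% interval -2.24 to 1.23, limma FDR 0.560, exact permutation p = 0.8). The sign of the Ly6a difference turned in 4 alternatives. It was 0.39 with equal FPKM totals and 0.14 with equal totals of all but the 20 most abundant genes. It was 0.34 without OEx mouse 3 and 0.71 without both libraries numbered 3 (limma FDR 1.71e-04, under the fold threshold). That FDR rests on replicates 1 and 2 alone, which may not be separate mice. Ly6a shares sequence with Ly6c1 and other members of the cluster, so reads may be split between these genes.

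Ly6d (chr15:74762056-74763620, minus strand) marks castration-resistant and progenitor-like luminal cells. Its FPKM values were 3.84, 2.64 and 1.12 in OEx mice 1, 2 and 3 and 4.62, 2.80 and 4.33 in Ctrl mice 1, 2 and 3, from 15 to 57 recovered reads per mouse. The groups overlapped, with OEx mouse 3 the lowest. The log2 fold change of Ly6d was -0.54 (SE 0.318, 95% interval -1.30 to 0.23, limma FDR 0.175), and it was 0.14 with equal FPKM totals and -0.14 without both libraries numbered 3. The difference in Ly6d was within the spread between the replicates.

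Of the other 18 Ly6 family genes of this cluster, 16 were in the tables, 4 passed the filter of a mean of at least 1 FPKM, and 1 was called. Ly6e rose from 339 ± 3.70 FPKM (SD, n = 3) in Ctrl mice to 714 ± 15.5 FPKM (SD, n = 3) in OEx mice (log2 fold change 1.07), which made it the most abundant Ly6 family gene of the cluster in both groups. Lynx1, Gpihbp1 and Ly6c1 were not called, with log2 fold changes of -0.93 (limma FDR 0.0159), -0.97 (FDR 0.0117) and -0.58 (FDR 0.412). Ly6c1, an endothelial and leukocyte antigen, was at 29.1, 25.4 and 5.95 FPKM in OEx mice 1, 2 and 3 and at 20.4, 19.6 and 40.9 FPKM in Ctrl mice 1, 2 and 3, so its lowest and highest mice were those of Ly6a. The median log2 fold change of the 4 tested genes was -0.75 and was 0.01 with equal FPKM totals.

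Cd44, Prom1 and Itga2 encode transmembrane proteins. RefSeq promoters (GRCm38.p6, 250 bases before to 50 bases after a transcript start) were matched for these 3 members. These were the members with an entry in the promoter table, and they are shown for the motif through which N1ICD acts. The motif searched on both strands was TGGGAA (reverse TTCCCA), the core bound by RBPJ, the DNA-binding partner of N1ICD. Capitals mark the matches, and the sequences run 5′ to 3′ along the gene, all on the minus strand.
Cd44 promoter, chr2:102901616-102901915: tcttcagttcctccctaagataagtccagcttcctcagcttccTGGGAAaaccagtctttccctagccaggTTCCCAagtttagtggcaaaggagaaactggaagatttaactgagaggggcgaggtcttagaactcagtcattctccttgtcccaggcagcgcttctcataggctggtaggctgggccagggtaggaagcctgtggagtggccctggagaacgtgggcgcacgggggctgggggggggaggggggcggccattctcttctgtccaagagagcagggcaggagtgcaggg
Itga2 promoter, chr13:114932051-114932350: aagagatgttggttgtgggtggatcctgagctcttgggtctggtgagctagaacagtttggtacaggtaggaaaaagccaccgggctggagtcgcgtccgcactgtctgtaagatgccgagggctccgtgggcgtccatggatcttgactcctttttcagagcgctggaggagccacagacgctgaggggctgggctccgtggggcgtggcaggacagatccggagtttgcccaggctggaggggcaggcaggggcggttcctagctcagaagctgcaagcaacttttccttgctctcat
Prom1 promoter, first of 2 starts, chr5:44101687-44101986: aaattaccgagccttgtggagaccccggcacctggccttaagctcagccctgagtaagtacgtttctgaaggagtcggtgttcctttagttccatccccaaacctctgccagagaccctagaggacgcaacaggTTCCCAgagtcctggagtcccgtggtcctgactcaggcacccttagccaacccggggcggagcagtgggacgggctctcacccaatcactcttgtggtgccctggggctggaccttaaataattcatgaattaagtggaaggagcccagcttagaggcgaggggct
The Cd44 window held 2 matches to the RBPJ core, at positions -207 (forward) and -179 (reverse) from the start. The Prom1 window held 1 RBPJ core at -116 (reverse), and these letters were not in the Itga2 window or in the window of the second Prom1 start (chr5:44094719-44095018). Of 32851 mouse promoters of the same length, 25.6% held the RBPJ core, and a match describes letters and not a bound site.

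Cd44 (chr2:102811141-102901665, minus strand), the receptor for hyaluronan, was at 4.08, 3.76 and 2.61 FPKM in OEx mice 1, 2 and 3 and at 1.77, 1.71 and 2.01 FPKM in Ctrl mice 1, 2 and 3. The groups did not overlap, and OEx mouse 3 was nearest to the Ctrl mice. Cd44 was 1.90-fold higher in OEx mice, at 3.48 ± 0.776 against 1.83 ± 0.159 FPKM (SD, n = 3 each), and passed the FDR but not the fold threshold (log2 fold change 0.65, SE 0.152, 95% interval 0.29 to 1.01, limma FDR 0.00827). It was called with equal FPKM totals (1.31, limma FDR 4.90e-04) and with equal totals without the 20 most abundant genes (1.12, FDR 8.80e-04). Without both libraries numbered 3 it was 0.84, and with replicates 1 and 2 averaged it was 0.55 and no longer passed the FDR (0.0877).

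Itga2 (chr13:114833081-114932100, minus strand), which pairs with Itgb1 as a collagen receptor, was at 0.661, 0.521 and 0.217 FPKM in OEx mice 1, 2 and 3 and at 0.123, 0.130 and 0.148 FPKM in Ctrl mice 1, 2 and 3. All OEx mice were above all Ctrl mice at a low level, from 28 to 94 recovered reads in OEx mice and 11 to 16 reads in Ctrl mice. The mean was 3.49-fold higher in OEx mice (0.466 ± 0.227 against 0.134 ± 0.0126 FPKM, SD, n = 3 each), and the exact two-sided permutation test gave its smallest possible p, 0.1. The log2 fold change of Itga2 on the log2(FPKM + 1) scale was 0.36, with a limma FDR of 0.0610 in the fit without a filter on low values and of 0.0299 in the fit over genes with at least 10 recovered reads in every mouse. Without the libraries numbered 3 its mean was 4.67-fold higher. That scale understates the change of genes far below 1 FPKM.

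Prom1 (chr5:43993620-44102032, minus strand) encodes prominin 1, a pentaspan protein of membrane protrusions. It was at 24.6, 25.3 and 18.6 FPKM in OEx mice 1, 2 and 3 and at 27.4, 26.9 and 21.9 FPKM in Ctrl mice 1, 2 and 3. The groups overlapped, and mouse 3 was the lowest of each group. The log2 fold change of Prom1 was -0.15 (SE 0.148, 95% interval -0.51 to 0.20, limma FDR 0.394), an interval within a fold of 2 in either direction. It turned positive with equal FPKM totals (0.72, limma FDR 0.0143), with equal totals without the 20 most abundant genes (0.48, FDR 0.0491) and with upper-quartile scaling (0.12). Without both libraries numbered 3 it was -0.12. Of the exon bases of Prom1, 5.91% are shared with Gm16401 on the opposite strand.

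Scaling moved all genes together, and the order of the members by log2 fold change was therefore read relative to the median of all tested genes. That median was -0.08 on the deposited scale, 0.66 with equal FPKM totals, 0.46 with equal totals without the 20 most abundant genes and 0.15 with upper-quartile scaling. Relative to it, Krt4 lay at 1.31 to 1.45, Ppp1r1b at 1.45 to 1.58, Clu at 1.27 to 1.44 and Cd44 at 0.65 to 0.73 over these 4 scalings. Psca lay at -3.29 to -3.23, Ly6d at -0.52 to -0.46, Ly6a at -0.43 to -0.28 and Prom1 at -0.07 to 0.06. The share of called genes that were higher in OEx mice went from 45.0% on the deposited scale to 89.8% with equal FPKM totals, and the members called went from 3 higher and 1 lower to 4 higher and 1 lower.

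**Figure D2:**
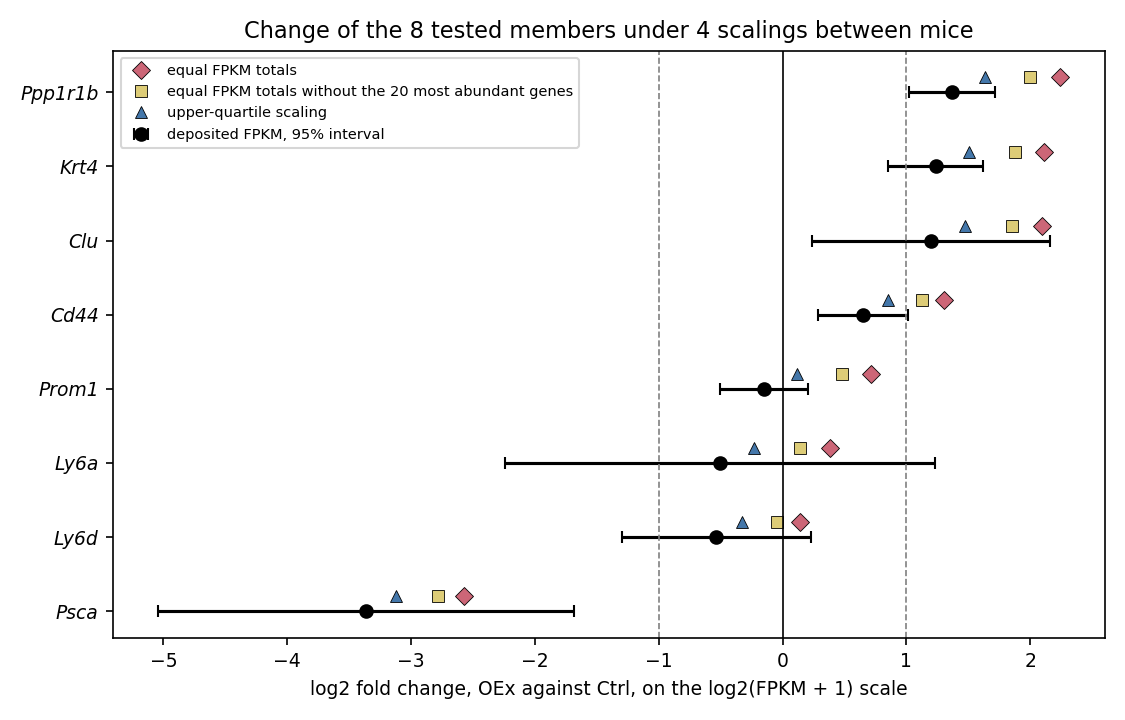
Log2 fold change (x axis, OEx against Ctrl) of the 8 tested members on the deposited scale with its 95% interval (black) and under 3 other scalings between mice (coloured), with the fold threshold as dashed lines. Psca lies below -1 and Ppp1r1b, Krt4 and Clu above 1 under all 4 scalings, whereas Cd44 crosses 1 and Prom1, Ly6a and Ly6d cross 0.

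The order of the members by mean level per length differed between the groups. In Ctrl mice the order of the mean FPKM was Clu (161), Ly6a (93.4), Psca (62.7), Prom1 (25.4), Krt4 (22.5), Ppp1r1b (16.9), Ly6d (3.92), Cd44 (1.83) and Itga2 (0.134). The ranges of Clu and Ly6a, of Ly6a and Psca, and of Prom1 and Krt4 overlapped between these neighbours. Within each Ctrl mouse, however, Clu was above Ly6a. In OEx mice the order was Clu (386), Ly6a (79.6), Krt4 (55.2), Ppp1r1b (45.8), Prom1 (22.8), Psca (8.28), Cd44 (3.48), Ly6d (2.53) and Itga2 (0.466). Here the ranges overlapped between Ly6a and Krt4, Krt4 and Ppp1r1b, Prom1 and Psca, Psca and Cd44, and Cd44 and Ly6d. By the means Psca thus went from place 3 to place 6, and Krt4 from place 5 to place 3. Single OEx mice did not all share this order. In OEx mice 1 and 2 Psca (2.39 and 2.29 FPKM) was below both Cd44 and Ly6d. In OEx mouse 3 Psca (20.2 FPKM) was above Prom1 (18.6 FPKM) and Ly6a (18.3 FPKM).

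The members also differed in how replicate 3 of each group stood to replicates 1 and 2. Ly6a in OEx mice 1 and 2 averaged 6.04 times its level in OEx mouse 3, and in Ctrl mouse 3 it was 2.18 times the mean of Ctrl mice 1 and 2. Clu had the same pattern, at 2.45 times and 1.73 times. Krt4 was 1.47 times as high in OEx mouse 3 as in OEx mice 1 and 2 and 1.02 times in Ctrl mouse 3, without this pattern. The summed FPKM of 9 fibroblast and smooth muscle genes was 497, 498 and 264 in OEx mice 1, 2 and 3 and 711, 698 and 1409 in Ctrl mice 1, 2 and 3. The 7 endothelial genes summed to 38.0, 34.4 and 13.8 FPKM and to 41.4, 40.8 and 68.2 FPKM in these mice. Ly6c1, which shares sequence with Ly6a, is in this list and held most of the sum in OEx mice 1 and 2 and Ctrl mouse 3. The other endothelial genes differed less among OEx mice (Pecam1 at 2.66, 2.56 and 2.15 FPKM), and Kdr and Emcn were not lowest in OEx mouse 3. The 10 leukocyte genes summed to 25.4, 24.6 and 5.84 FPKM and to 5.46, 6.11 and 11.3 FPKM. In the sum of each of these 3 lists OEx mouse 3 was below OEx mice 1 and 2, as in Ly6a and Clu. Ctrl mouse 3 was above Ctrl mice 1 and 2, again as in Ly6a and Clu. The 7 seminal vesicle genes were also far higher in Ctrl mouse 3 (14993 FPKM in sum) than in Ctrl mice 1 and 2. For the endothelial list the low sum in OEx mouse 3 came mainly from Ly6c1. For the fibroblast and smooth muscle list it came mainly from Col1a1 and Col3a1, whereas Myh11 was highest in OEx mouse 3 (33.4, 34.3 and 52.0 FPKM). Acta2 (1166 FPKM) held most of this list's sum in Ctrl mouse 3. Most of the leukocyte sum in Ctrl mouse 3 was Cd68 (7.28 FPKM). Cd8a was lowest among Ctrl mice in mouse 3 (0.462, 0.488 and 0.271 FPKM), and Cd4 and Itgam were also not highest there. Of the fibroblast and smooth muscle genes Acta2, Tagln and Myh11 were called lower, and 0 were called lower and 1 higher with equal FPKM totals. Under that scaling 4512 of all 12833 tested genes were called higher and 511 lower. Of the endothelial genes Emcn was called lower, and of 3 tested leukocyte genes Cd8a was called higher. Without both libraries numbered 3, 4 fibroblast genes (Col1a1, Col1a2, Col3a1 and Lum) and all 3 tested leukocyte genes were called higher. In that fit Acta2, Tagln and Myh11 were still called lower. The part of these cell types in the Ly6a and Clu values was not tested, nor was that of seminal vesicle RNA in Ctrl mouse 3.

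**Figure D3:**
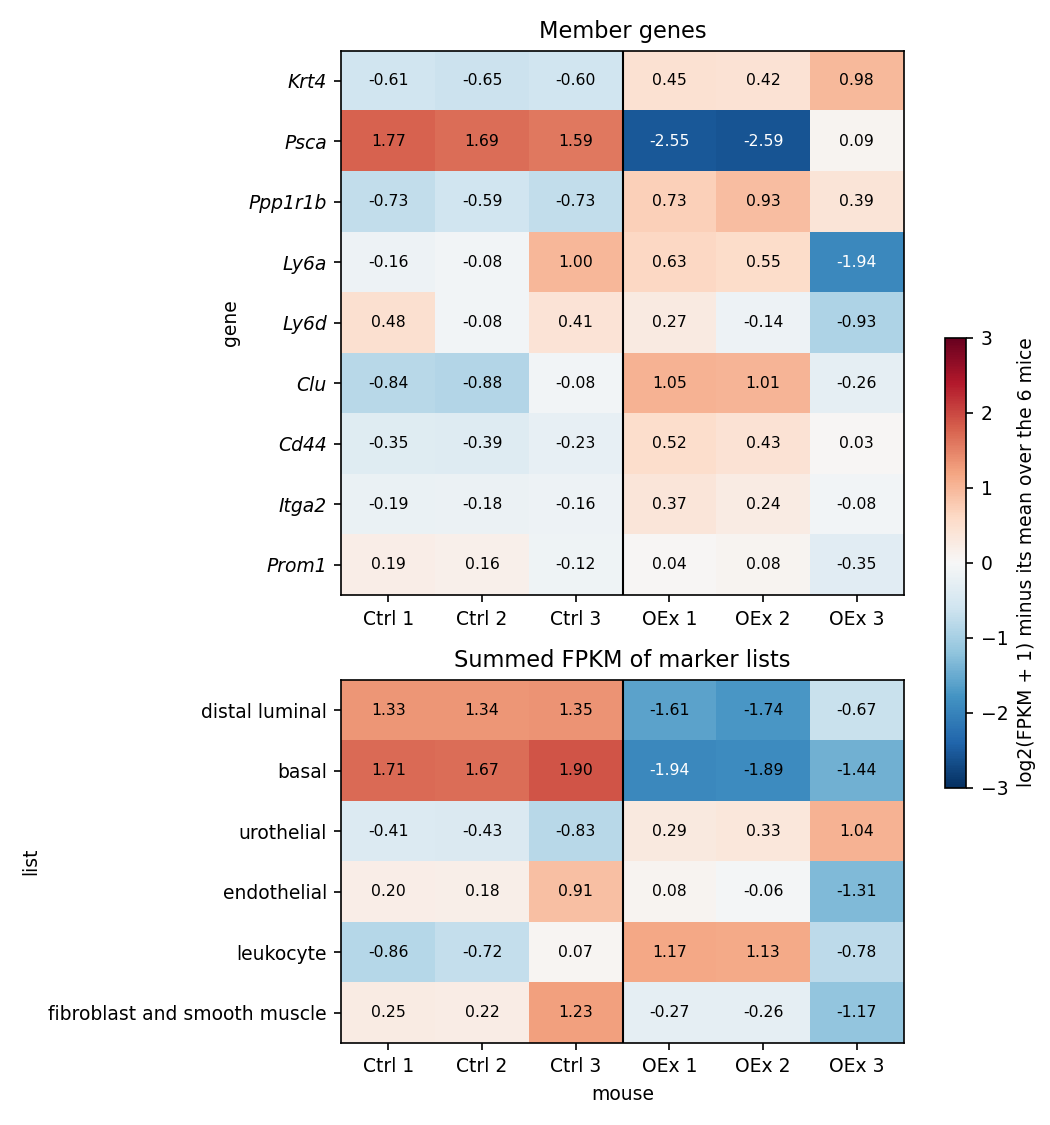
Log2(FPKM + 1) of each member (top) and of the summed FPKM of 6 marker lists (bottom) in each mouse, minus its mean over the 6 mice (colour and printed value). Ly6a (-1.94 in OEx mouse 3) and the endothelial list (-1.31 in OEx mouse 3) have their lowest and highest values in the same 2 mice. The endothelial list includes Ly6c1, which shares sequence with Ly6a and from which its low value in OEx mouse 3 mainly comes. Psca follows the basal and distal luminal lists in being higher in all 3 Ctrl mice.

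Basal and secretory markers moved as well, beside which the Psca and Krt4 values stand. In the basal list 6 of 7 genes were called lower, at log2 fold changes of -4.41 for Krt5, -4.37 for Krt15 and -3.85 for Krt14 (5 of 7 with equal FPKM totals). The basal list summed to 17.9 to 25.7 FPKM in OEx mice and 229 to 269 FPKM in Ctrl mice. Of 7 distal luminal genes, 4 were called lower (Tgm4, Pbsn, Krt18 and Hoxb13) and 1 higher (Dpp4), and the sums were 2939 to 6187 FPKM in OEx mice and 24775 to 25025 FPKM in Ctrl mice. With equal FPKM totals 2 distal luminal genes were called lower, as were 511 of all 12833 tested genes. Tgm4, transglutaminase 4 of the AP secretion, was at 90.7, 92.3 and 445 FPKM in OEx mice 1, 2 and 3 and at 8207, 8280 and 4610 FPKM in Ctrl mice 1, 2 and 3. Psca and Tgm4 were both highest among OEx mice in mouse 3 and lowest among Ctrl mice in mouse 3. Of 6 urothelial genes, Upk1a and Upk3a were called higher (288 against 23.2 and 29.0 against 0.445 FPKM on average), while Upk3b and Krt20 stayed under 0.1 FPKM in all mice. Upk1b was at 83.3 against 157 FPKM on average, without overlap, and was not called (log2 fold change -0.90, limma FDR 0.00129), but was called lower without both libraries numbered 3 (-1.12). Upk2 was at 4.58 against 2.93 FPKM and was not called (0.52, limma FDR 0.0168). The part of these cell types in the member values was not tested.

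The members were also set beside 11 other genes of proximal luminal cells, listed from what is known of that region. Of the 8 tested, 2 were called higher and 2 lower, against 12.9% and 15.7% of all tested genes. The median of their log2 fold changes was 0.41. Sox2, a stem cell transcription factor, had a log2 fold change of 1.69, and Pigr, the receptor that carries IgA across epithelia, of 1.12, which was 0.84 and not called without both libraries numbered 3. Wfdc2, a secreted protease inhibitor, fell by 1.78 and the keratin Krt7 by 1.51 on the log2 scale. Krt19, the most abundant gene of the list, was at 654 against 517 FPKM on average (0.33, limma FDR 0.0460) and was not called. With equal FPKM totals 4 were called higher and 1 lower, against 4512 higher and 511 lower of all 12833 tested genes. As among the 9 members, genes known from the same region were called in both directions, which also holds for all tested genes.

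Of 13 other genes used as prostate stem or progenitor markers, 11 were tested. Of these, 3 were called higher and 1 lower, against 12.9% and 15.7% of all tested genes, and the median log2 fold change was 0.55. Prom2, the paralog of Prom1, was at 41.2, 45.2 and 59.5 FPKM in OEx mice 1, 2 and 3 and at 3.39, 3.38 and 4.38 FPKM in Ctrl mice 1, 2 and 3. Every OEx mouse exceeded every Ctrl mouse in Prom2 (log2 fold change 3.39, limma FDR 2.64e-05), whereas the groups overlapped in Prom1. Sox9, a transcription factor of progenitors, rose by 2.54 and Bcl2, an inhibitor of apoptosis, by 1.25 on the log2 scale. Lgr5, a Wnt target, was called lower (0.368 against 1.80 FPKM on average) and lost this call under all 3 other scalings. Itgb1, the partner of Itga2, was the most abundant gene of the list over the 6 mice and was not called (0.17, limma FDR 0.430). With equal FPKM totals 8 of the 11 were called higher and 0 lower, against 4512 higher and 511 lower of all 12833 tested genes.

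**Figure D4:**
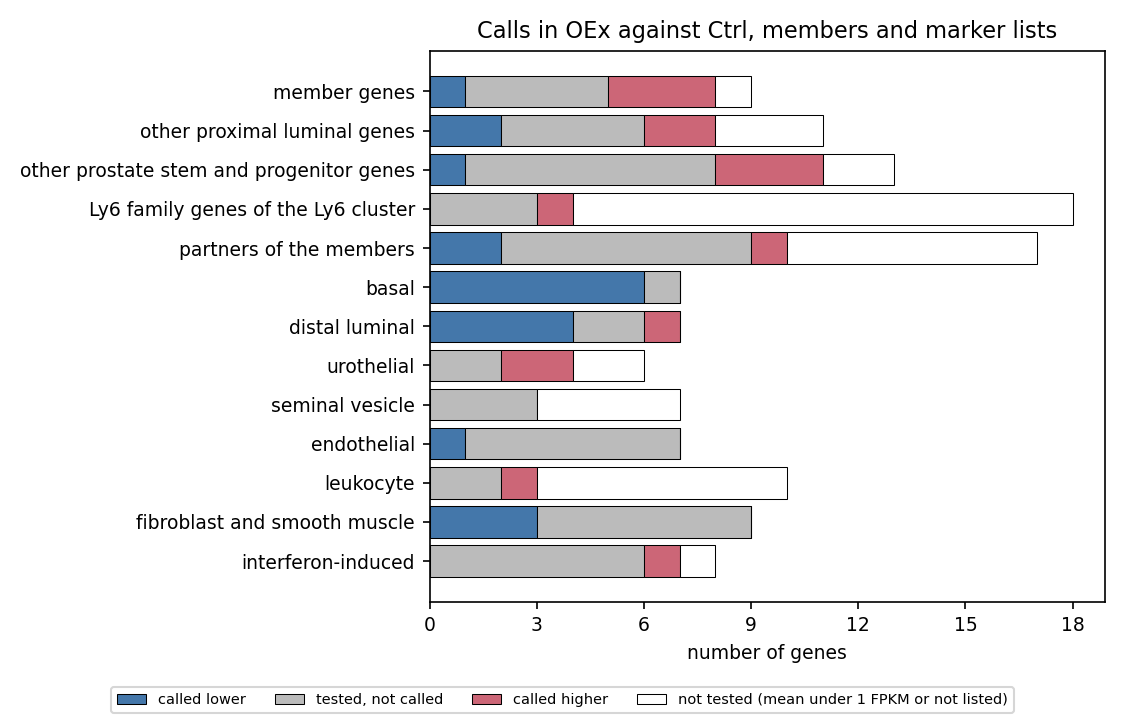
Number of genes (x axis) called lower, tested but not called, called higher and not tested in the main fit, for the 9 members and the 12 marker lists. The basal list has 6 of 7 genes called lower, whereas the members, the other proximal luminal genes and the stem and progenitor genes hold calls in both directions.

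For each called member, the 2 tested genes with the most similar profile over the 6 mice were found by the root mean square distance between centred log2(FPKM + 1) values. They were Trp53inp1 (0.0471) and Tbc1d8b (0.0518) for Krt4, Sp110 (0.0640) and Gm37829 (0.0657) for Ppp1r1b, and Apobec1 (0.0645) and H2-Q7 (0.0689) for Clu. For Psca, the nearest genes were farther away, Gm37712 at 0.297 and Col4a6 at 0.321. The distance is not scaled to the size of a change, and Psca had the largest change, so its distances cannot be compared with the others. Col4a6, a chain of basement membrane collagen, was at 1.10, 1.32 and 8.15 FPKM in OEx mice 1, 2 and 3 and at 45.7, 47.6 and 25.7 FPKM in Ctrl mice 1, 2 and 3, so that OEx mouse 3 was the highest OEx mouse in it as in Psca. H2-Q7 and Apobec1 had their lowest OEx value in mouse 3 and their highest Ctrl value in mouse 3, as Clu did. These genes were picked for their similar profiles, so the shared patterns follow from that choice and are no separate result.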

How the data were processed

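The authors deposited FPKM values in 1 table per library, with 55076 rows for 54428 gene symbols, and each member had a single row. The tools named in the submitters' processing notes were CASAVA, HISAT2 2.0.5, StringTie 1.3.3b and featureCounts 1.5.0-p3, and the strand setting is not given in the sources used here. FPKM values divide out gene length and library size, so reads were recovered from FPKM and GENCODE exon lengths of GRCm38 for depth and for alternatives: between 96.9% and 97.5% of values under 1000 reads came out whole within 0.05 reads.

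The comparison used limma 3.58.1 (R 4.3.3) on log2(FPKM + 1) with no term but the group, for the 12833 rows averaging 1 FPKM or more. Calls needed a Benjamini-Hochberg FDR under 0.05 and a log2 fold change beyond 1 in size. Exact permutation tests were two-sided. Each library is labelled as a replicate of its group, and p-values measure the spread between these samples. The scripts were tested on simulated data. The members, lists and tests were chosen with earlier results of these data known. All 9 members, Notch1, up to 4 genes of each list (the called ones with the largest change and the most abundant one) and the 2 genes nearest to each called member were named by rule; some genes that the rule and the lists held are not reported here. Any further list gene, among them Pigr, Krt7, Myh11, Col1a1, Col1a2, Col3a1, Lum, Hoxb13, Lynx1, Gpihbp1, Lgr5, Krt20, Upk1b, Upk2, Upk3b, Pecam1, Kdr and Mx1, was named after its values were seen. The alternatives were 15 planned and 2 chosen after seeing the data: both libraries numbered 3 left out, and replicates 1 and 2 averaged.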

Additional observations from a re-analysis of the deposited data

How the results depend on the processing

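Psca, Krt4 and Ppp1r1b were called in the same direction in all 17 alternatives, and the number of members called higher ran from 2 to 4. With each mouse left out in turn, the log2 fold change ran from 1.05 to 1.33 for Krt4, 1.24 to 1.51 for Ppp1r1b, -4.25 to -2.91 for Psca, 0.97 to 1.63 for Clu (called in 2 of 6), -0.95 to 0.34 for Ly6a, -0.80 to -0.21 for Ly6d, 0.55 to 0.80 for Cd44 and -0.25 to -0.02 for Prom1. Signs turned with equal FPKM totals for Ly6a (0.39), Ly6d (0.14) and Prom1 (0.72), with equal totals without the 20 most abundant genes for Ly6a (0.14) and Prom1 (0.48), with upper-quartile scaling for Prom1 (0.12), and for Ly6a with both libraries numbered 3 left out (0.71), an alternative chosen after seeing the data. Clu also lost its call without the filter on low values (limma FDR 0.0705). Replicate numbers are shared by both groups, but the deviations of same-numbered mice correlated at -0.31 to -0.19, and nothing in the labels pairs them. In the fit with a replicate block, 1611 genes were called higher and 1986 lower, against 1653 and 2021, the members called higher went from 3 to 2, and Clu (FDR 0.0959) was the only member whose call changed. Ly6d rested on 15 to 57 recovered reads per library and Itga2 on 11 to 94.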

Other observations

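Genes known to act with the members were also read. Of 17 listed partners, 10 were tested, and the median log2 fold change was 0.18. Of these, 1 was called higher and 2 lower, against 12.9% and 15.7% of all tested genes. Protein phosphatase 1 is the target of the Ppp1r1b protein once protein kinase A has phosphorylated it. The catalytic subunit gene of protein kinase A, Prkaca, was at 22.0, 23.2 and 25.0 FPKM in OEx mice 1, 2 and 3 and at 63.8, 66.1 and 55.3 FPKM in Ctrl mice 1, 2 and 3 (log2 fold change -1.36, limma FDR 7.00e-05). Among the phosphatase 1 subunits, Ppp1ca was lower (-1.22, limma FDR 9.80e-05), Ppp1cb was at 0.79 (FDR 0.00111) without a call, and Ppp1cc was at 0.20 (FDR 0.103). With equal FPKM totals Prkaca (-0.48) and Ppp1ca (-0.32) were not called lower and Ppp1cb (1.64) was called higher.

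Cd44 binds the cytoskeleton through ezrin, radixin and moesin. Radixin (Rdx) was called higher, at 20.5 ± 1.67 against 9.58 ± 1.27 FPKM (SD, n = 3 each; log2 fold change 1.03). Ezrin (Ezr), the most abundant partner, was at 224, 226 and 242 FPKM in OEx mice 1, 2 and 3 and at 449, 454 and 260 FPKM in Ctrl mice 1, 2 and 3 (-0.70, limma FDR 0.0276), and its sign turned with equal FPKM totals (0.20). The hyaluronan synthases Has1, Has2 and Has3 were at most 0.504 FPKM in any mouse. Ppp1ca, Ppp1cb, Ppp1cc and the synthases were named after their values were seen.

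Of 8 interferon-induced genes, a group to which Ly6a belongs in many cells, 7 were tested, and Ifit1 was called higher (1.34). By the FDR alone 2 were higher and 1, Mx1, was lower (-0.96, limma FDR 0.00971, under the fold threshold). The list summed to 50.1, 48.1 and 24.3 FPKM in OEx mice 1, 2 and 3 and to 26.1, 25.0 and 34.6 FPKM in Ctrl mice 1, 2 and 3. The lowest of these sums was in OEx mouse 3, where Ly6a was also lowest, but it was close to those of Ctrl mice 1 and 2. The highest sum was in OEx mouse 1, whereas Ly6a was highest in Ctrl mouse 3.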
